A study of Homo sapiens with 10 samples.

Results

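Metal importers of the ZIP family, a zinc exporter, an endosomal iron reductase and 4 metallothioneins were followed at the RNA level. The cells were the established human line NK-92, which derives from a lymphoma of natural killer (NK) cells. Some received an iron chelator or an antibody to transferrin receptor 1. The genes were SLC39A8, SLC39A14, SLC39A10, SLC30A1, STEAP3, MT2A, MT1X, MT1E and MT1F, taken by symbol from the deposited gene table, where all 9 were found among 54628 genes. Libraries of polyadenylated RNA were made from cells that received the iron chelator deferoxamine (DFO) at 500 µM for 6 h or 24 h. Others were made from cells that received PPMX-T003 (T003 below), which is an antibody to transferrin receptor 1, at 10 µg/mL for 6 h or 24 h, and from untreated cells taken at 0 h. Each of the 5 groups had 2 libraries, and all cells were grown in Artemis Medium-1 with human serum. The untreated cells were sampled at 0 h only, so time in culture and the agent cannot be told apart in a comparison with them. No label says that the 2 libraries of a group came from separate cultures, so the p-values reflect only how much such libraries spread, which may be technical. The comparisons ask whether, and when, chelating iron or binding its receptor was followed by changes in transcripts of other metal carriers and metal buffers, and whether the agents differed.

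ZIP proteins, encoded by the SLC39 genes, carry zinc and other metals into the cytosol. SLC39A8 (ZIP8) and SLC39A14 (ZIP14) also take up manganese, cadmium and iron that is not bound to transferrin, and SLC39A10 (ZIP10) imports zinc at the plasma membrane. SLC30A1 (ZnT1) works the other way and exports zinc from the cell. Metallothioneins are small, cysteine-rich proteins that bind zinc and copper. When cytosolic zinc is high, the zinc-sensing transcription factor MTF1 binds metal response elements and raises transcription of metallothionein genes and of SLC30A1. STEAP3 is the ferrireductase of the transferrin cycle, which turns ferric iron released in the endosome into ferrous iron.

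The promoters of MT2A, MT1X and SLC30A1 are shown because these genes were lower after 24 h of T003 and because MTF1 is known to act through such sequences. Each is the 250 bases before the RefSeq gene start (GRCh38.p14), 5′ to 3′ on the strand of the gene, with capitals marking the core of the metal response element, searched on both strands as TGCACNC and TGCGCNC. They lie at chr16:56608334-56608583 (MT2A, plus strand), chr16:56682220-56682469 (MT1X, plus strand) and chr1:211579162-211579411 (SLC30A1, minus strand).
MT2A: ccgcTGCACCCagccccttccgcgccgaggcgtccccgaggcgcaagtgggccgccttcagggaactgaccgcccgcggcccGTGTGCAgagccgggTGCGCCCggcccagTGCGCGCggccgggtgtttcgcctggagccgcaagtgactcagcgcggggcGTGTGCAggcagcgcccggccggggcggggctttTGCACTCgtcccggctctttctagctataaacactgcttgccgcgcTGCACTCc
MT1X: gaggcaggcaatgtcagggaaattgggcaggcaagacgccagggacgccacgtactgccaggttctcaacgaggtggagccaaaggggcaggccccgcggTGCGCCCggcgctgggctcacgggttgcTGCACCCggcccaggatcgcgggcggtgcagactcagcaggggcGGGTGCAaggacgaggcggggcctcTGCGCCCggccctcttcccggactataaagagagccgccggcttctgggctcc
SLC30A1: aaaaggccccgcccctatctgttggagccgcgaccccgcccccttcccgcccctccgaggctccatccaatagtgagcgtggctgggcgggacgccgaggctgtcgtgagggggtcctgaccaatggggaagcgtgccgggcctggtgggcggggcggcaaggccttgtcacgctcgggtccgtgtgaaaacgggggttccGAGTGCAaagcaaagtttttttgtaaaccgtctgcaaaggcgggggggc

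The MT2A sequence held 7 cores, 246, 168, 153, 139, 88, 54 and 8 bases before the gene start. The MT1X sequence held 4, at 150, 122, 78 and 53 bases, and the SLC30A1 sequence held 1, on the opposite strand at 49 bases. No core overlapped another. Of 35116 promoter windows of the same length in the RefSeq table, 24.8% held at least 1 core, 0.37% held at least 4 and 0.0313% held at least 7. For the importers, 1 of 3 windows of SLC39A8 held 1 core and the 2 windows of SLC39A10 held 0, as did that of STEAP3. Not all of these windows precede the gene start given here. Both SLC39A10 windows lie inside its locus, and the SLC39A8 windows without a core overlap that gene. A match is a description of the letters and does not show that a factor binds there. The promoter set held no window for MT1E, MT1F or SLC39A14, so these genes are named only. Of them, MT1E also fell after 24 h of T003 and SLC39A14 rose.

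Library totals ran from 107117892 to 143575614 estimated counts. Levels are TMM-scaled CPM (counts relative to library size), and a count of 3, the floor used for a gene at 0, stood for 0.0209 to 0.0278 CPM, which covers counting error only. Differences between groups were tested with edgeR's quasi-likelihood F-test over 20125 genes, with Benjamini-Hochberg adjustment, and a gene is said to have risen or fallen where its adjusted p was under 0.05. TFRC, the gene of the receptor that T003 binds, rose in all 4 comparisons with untreated cells. It averaged 353 CPM with DFO and 428 CPM with T003 at 6 h, and 834 CPM with DFO and 846 CPM with T003 at 24 h, against 171 CPM in untreated cells. All 10 markers of NK cells had an average level above 1 CPM, with summed levels of 2230 to 2240 CPM after 24 h of T003 and 2013 to 2137 CPM in the other groups; the bearing of this on the results at 24 h was not tested. Of the 7 T cell markers, CD3E and TRAC carried nearly all of the summed 436 to 482 CPM, and 2 were at 0 in every library. Markers of B, myeloid, erythroid or platelet, and epithelial or stromal cells summed to at most 3.29 CPM per library.

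After 24 h of T003, 2 importers rose while the zinc exporter and 3 metallothioneins fell, and with DFO the 2 importers alone passed the test. SLC39A8 and SLC39A14 rose with both agents, by 10.0% to 13.0%. SLC30A1, MT2A, MT1X and MT1E fell with T003, by 12.6% to 24.6%, the call of MT1E holding in 3 of 15 alternatives. The calls of SLC39A14 and MT1X with T003 held in 15 of 15 alternatives. Each other call of these genes at 24 h ended when 1 library was left out. The 3 metallothioneins also had negative log2 changes with DFO, which did not pass. Compared directly at 24 h, the agents differed in 0 of the 7 tested genes by edgeR's test, where 1.34% of all tested genes did. SLC30A1 and MT1X lay near the threshold in that comparison (adjusted p = 0.0627 and 0.0576, edgeR), and DESeq2 called both. At 6 h none of the genes had passed the test with either agent. STEAP3 and MT1F were removed by the filter on low counts, so 7 of the 9 genes were tested. With T003, 2 of these 7 rose and 4 fell, where 7.1% of all tested genes rose and 5.44% fell. With DFO, 2 rose and 0 fell, where 3.43% of all tested genes rose and 3.27% fell. Both comparisons use the same 2 untreated libraries. The 9 genes were chosen with earlier results of these data known, so the counts beside these shares are a description only. These are bulk samples, in which fewer cells of a kind and less RNA per cell cannot be told apart.

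**Figure D1:**
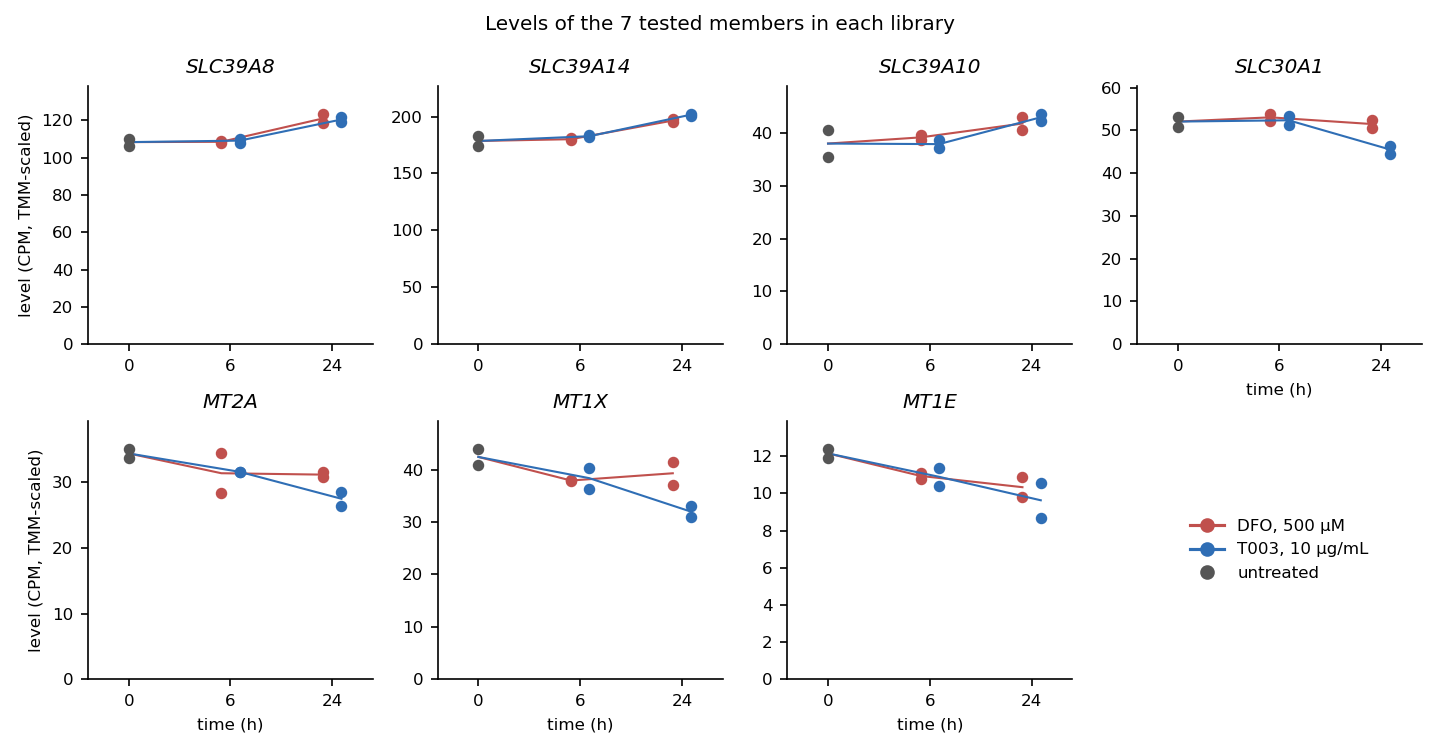
Level of the 7 tested genes in each library (CPM after TMM scaling, axes from 0) at 0, 6 and 24 h, drawn at equal steps. Points are libraries and lines join group means; all 24 h libraries of SLC39A8 and SLC39A14 lie above the untreated ones, and the T003 libraries at 24 h are the lowest for SLC30A1 and MT1X.

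SLC39A8 (chr4:102251041-102345482, hg38, minus strand), an importer, rose by a like size with both agents. Its level was 119 and 124 CPM with DFO at 24 h and 122 and 119 CPM with T003 at 24 h, against 110.3 and 106 CPM in untreated cells. All 4 libraries at 24 h lay above both untreated libraries. The log2 change was 0.16 with DFO (SE 0.030, adjusted p = 0.00896, edgeR) and 0.15 with T003 (SE 0.030, adjusted p = 0.00648). Leaving out 1 library could end either call. The DFO call ended without replicate 2 of DFO at 24 h (adjusted p = 0.0911) or untreated replicate 2 (0.103), within a range of 9.73e-05 to 0.103 over 15 alternatives. The T003 call ended without replicate 1 of T003 at 24 h (0.0685) or untreated replicate 2 (0.0825), within a range of 0.000121 to 0.0825.

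SLC39A14 (chr8:22367278-22434129, hg38, plus strand) gave the steadier rise with T003. It stood at 195 and 198 CPM with DFO at 24 h and at 201 and 203 CPM after 24 h of T003, against 183 and 174 CPM in untreated cells. The 2 groups at 24 h overlapped neither each other nor the untreated libraries. It rose by 0.14 on the log2 scale with DFO (SE 0.027, adjusted p = 0.0118, edgeR) and by 0.18 with T003 (SE 0.027, adjusted p = 0.00176). The T003 call held in 15 of 15 alternatives, the highest adjusted p being 0.0213. The DFO call ended without replicate 2 of DFO at 24 h (adjusted p = 0.0907), without untreated replicate 2 (0.110) and in a model of the compared groups alone (0.0587), within a range of 8.07e-05 to 0.110. RPL21P77, a pseudogene inside the same locus, had 0 to 4 counts per library.

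SLC39A10 (chr2:195613029-195737700, hg38, plus strand) had log2 changes close to those of the other importers but a wider spread. It had 43.0 and 40.55 CPM with DFO at 24 h and 42.3 and 43.6 CPM with T003 at 24 h, against 40.57 and 35.4 CPM in untreated cells. The T003 libraries lay above both untreated libraries, whereas the lower DFO library lay just under the higher untreated one. The log2 change was 0.14 with DFO (SE 0.060, adjusted p = 0.241, edgeR) and 0.18 with T003 (SE 0.060, adjusted p = 0.0821), so neither passed the test. Without untreated replicate 1, the higher of the untreated libraries, both passed, at a log2 change of 0.24 (adjusted p = 0.0378) with DFO and 0.28 (0.0135) with T003. DESeq2 also called the T003 change (adjusted p = 0.0225). Over the 15 alternatives the adjusted p ran from 0.0378 to 0.826 with DFO and from 0.0135 to 0.508 with T003.

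SLC30A1 (chr1:211571568-211579161, hg38, minus strand), the zinc exporter, fell after 24 h of T003 and did not pass the test in the other comparisons with untreated cells. It had 46.5 and 44.6 CPM with T003 at 24 h and 50.5 and 52.5 CPM with DFO at 24 h, against 50.9 and 53.3 CPM in untreated cells. The T003 libraries at 24 h were the lowest of all 10. The log2 change was -0.19 with T003 (SE 0.041, adjusted p = 0.00969, edgeR) and -0.02 with DFO (SE 0.040, adjusted p = 0.905). The T003 call ended without replicate 2 of T003 at 24 h (adjusted p = 0.0965) or untreated replicate 2 (0.111), within a range of 0.000725 to 0.111 over 15 alternatives.

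MT1X (chr16:56682470-56684196, hg38, plus strand) was the most abundant metallothionein and the one whose fall with T003 held throughout. It had 33.1 and 30.9 CPM after 24 h of T003, against 40.9 and 44.1 CPM in untreated cells. With DFO at 24 h it had 41.5 and 37.1 CPM, which overlapped the untreated libraries. It fell by 0.41 on the log2 scale with T003 (SE 0.066, adjusted p = 0.00236, edgeR), and the log2 change with DFO was -0.11 (SE 0.066, adjusted p = 0.427). The T003 call held in 15 of 15 alternatives, with a log2 change of -0.47 to -0.35 and an adjusted p of at most 0.0297.

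MT2A (chr16:56608584-56609497, hg38, plus strand), the single human gene of the second metallothionein class, had 28.6 and 26.5 CPM after 24 h of T003, against 33.7 and 35.2 CPM in untreated cells. With DFO at 24 h it had 30.8 and 31.6 CPM. Both groups at 24 h lay under the untreated libraries, and the T003 libraries were the lower ones. The log2 change was -0.32 with T003 (SE 0.077, adjusted p = 0.0185, edgeR) and -0.14 with DFO (SE 0.076, adjusted p = 0.367). The T003 call ended without replicate 2 of T003 at 24 h (adjusted p = 0.148) or untreated replicate 2 (0.138), within a range of 0.000258 to 0.148 over 15 alternatives.

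MT1E (chr16:56625781-56627112, hg38, plus strand) lay nearest the threshold. It had 10.6 and 8.68 CPM after 24 h of T003 and 9.81 and 10.9 CPM after 24 h of DFO, against 12.4 and 11.9 CPM in untreated cells. Every library at 24 h lay under both untreated libraries. The log2 change was -0.34 with T003 (SE 0.099, adjusted p = 0.0494, edgeR) and -0.23 with DFO (SE 0.099, adjusted p = 0.224). The T003 call held in 3 of 15 alternatives, with adjusted p from 0.0110 to 0.325. It ended with the replicate number as a block (adjusted p = 0.0596), with RLE scaling (0.0511), in a model of the compared groups alone (0.0732), and without either untreated library (0.195 without replicate 1, 0.144 without replicate 2). Without replicate 2 of T003 at 24 h the log2 change was -0.20 (adjusted p = 0.325), and without any 1 library of DFO or of T003 at 6 h the adjusted p was 0.0583 to 0.0627.

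Summed over all metallothionein genes, the level was 72.2 and 66.1 CPM after 24 h of T003 and 82.2 and 79.6 CPM after 24 h of DFO, against 86.9 and 91.2 CPM in untreated cells. The mean after 24 h of T003 was 77.6% of the untreated mean and that after 24 h of DFO was 90.8%. Across the 10 libraries MT1X made up 45.4% to 50.6% of the sum, MT2A 36.7% to 41.3% and MT1E 11.9% to 14.7%. The sum is a description and was not tested.

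**Figure D2:**
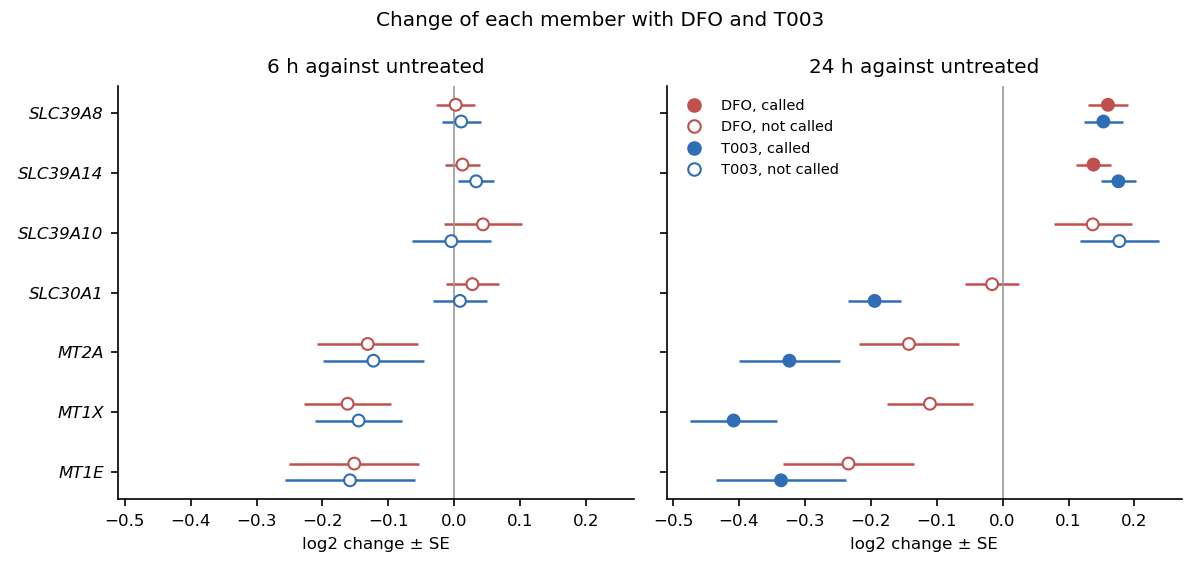
Log2 change of each tested gene against untreated cells (x axis) with its SE, at 6 h in the left panel and 24 h in the right. DFO is drawn above T003, and filled points passed edgeR's test at an adjusted p under 0.05; at 24 h T003 has 6 filled points and DFO has 2, and at 6 h there are 0.

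STEAP3 (chr2:119223834-119265652, hg38, plus strand) was barely detected in this line. It had 8 and 10 counts with DFO at 24 h and 0 and 3 counts after 24 h of T003, against 7 and 8 counts in untreated cells. At 6 h it had 0 and 8 counts with DFO and 4 and 0 with T003. Libraries at 0 occurred in 3 of the 5 groups. Tested with no filter it was called in none of the 8 comparisons (adjusted p 0.709 to 1, edgeR), and at these counts a difference was not detectable. STEAP3-AS1 and LOC105373581 overlap the locus, with 0 to 13 and 0 to 19 counts, and whether the counting was strand-specific is not stated in the labels, so reads of the overlapping genes cannot be told apart. MT1F (chr16:56657959-56659303, hg38, plus strand) had 0 counts in all 10 libraries, which allows at most 0.0278 CPM in the shallowest.

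The 4 metallothionein genes studied belong to a cluster on chromosome 16 in which 3 genes carried the counts. The table listed 16 genes and pseudogenes of the cluster over 119.1 kb, 11 of them protein-coding. MT2A, MT1E and MT1X averaged 31.2, 10.8 and 38.0 CPM over the 10 libraries. MT4, MT1L and MT1A reached at most 3 counts in any library, and 10 were at 0 in every library. Sequence shared between paralogs can split reads, so windows of 101 bases, the read length, were compared between GENCODE transcripts. None of the 301 windows of MT2A, 304 of MT1X, 646 of MT1E or 325 of MT1F occurred exactly in another of the 21 metallothionein genes and pseudogenes searched. Reads that match a paralog with mismatches were not examined.

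**Figure D3:**
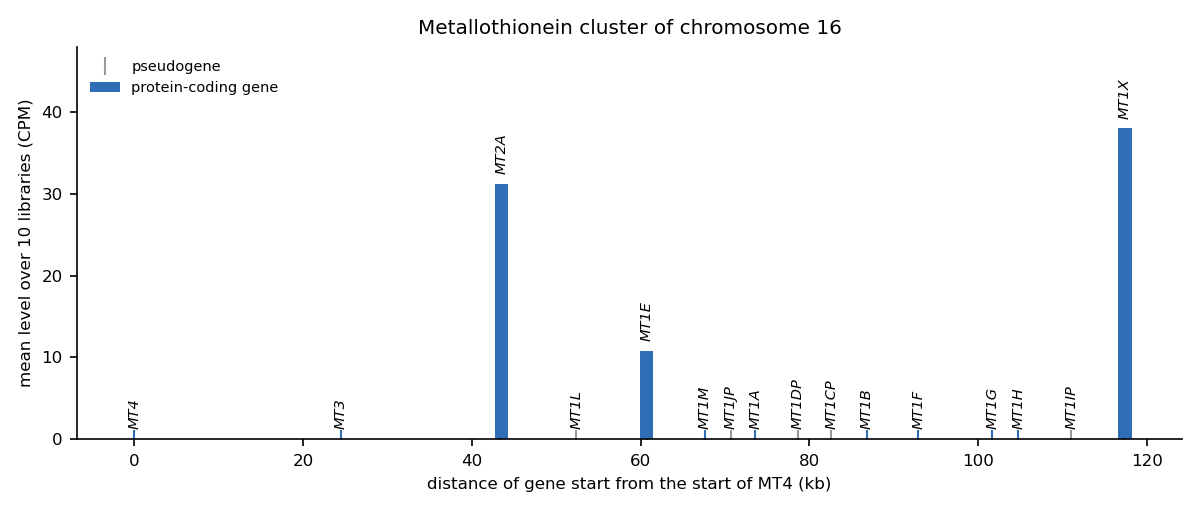
Mean level over 10 libraries (CPM, y axis) of 16 metallothionein genes and pseudogenes against the distance of the gene start from that of MT4 (kb, x axis). Bars at MT2A, MT1E and MT1X are the visible ones, at 31.2, 10.8 and 38.0 CPM, and ticks mark genes at or near 0.

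Set against transcript length, MT1X and MT2A had the highest levels of the 9 genes in untreated cells. Per kb of the MANE transcript, MT1X had 105 ± 5.64 CPM (SD, n = 2) in untreated cells and MT2A 85.8 ± 2.65. SLC39A14 had 38.3 ± 1.44 and SLC39A8 34.4 ± 0.866, followed by MT1E at 16.3 ± 0.501. SLC30A1 had 8.84 ± 0.285, SLC39A10 7.27 ± 0.705 and STEAP3 0.013 ± 0.002, while MT1F was at 0. After 24 h of T003 the same order held except between the last 2 well-detected genes. SLC39A10, at 8.22 ± 0.185 CPM per kb, then stood above SLC30A1, at 7.72 ± 0.225.

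At 6 h the importers and the exporter were at untreated levels within their spread. SLC39A8 had 108 and 109 CPM with DFO and 108 and 110.2 CPM with T003, and SLC39A14 had 181 and 179 CPM with DFO and 182 and 184 CPM with T003. In both genes each treated group overlapped the untreated range, which was 106 to 110.3 CPM for SLC39A8 and 174 to 183 CPM for SLC39A14. Among all genes, 0.0248% passed edgeR's test with DFO and 0.0298% with T003 at 6 h, a background beside which 0 of 7 genes does not stand apart. Their adjusted p-values were 0.356 to 0.994 with DFO and 0.662 to 0.993 with T003.

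The metallothioneins had negative log2 changes already at 6 h that did not pass the test. MT1X had 38.1 and 37.9 CPM with DFO at 6 h and 40.4 and 36.4 CPM after 6 h of T003, all under the untreated 40.9 and 44.1 CPM. MT1E had 10.8 and 11.1 CPM with DFO at 6 h and 11.4 and 10.4 CPM after 6 h of T003, also under the untreated 12.4 and 11.9 CPM. MT2A had 31.6 CPM in both libraries after 6 h of T003, under the untreated libraries, but 28.3 and 34.5 CPM after 6 h of DFO, a range that took in the lower untreated value. The log2 changes of the 3 genes were -0.16 to -0.13 with DFO and -0.16 to -0.12 with T003.

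Between 6 h and 24 h of the same agent SLC39A8 and SLC39A14 rose and, with T003, SLC30A1 and MT1X fell. The 24 h libraries are the same as in the comparisons with untreated cells. No untreated cells were taken at 6 h or 24 h, so time in culture and length of exposure cannot be told apart. SLC39A10 had log2 changes of 0.09 with DFO (adjusted p = 0.413) and 0.18 with T003 (adjusted p = 0.0727), which did not pass. With DFO, 2 of the 7 genes passed edgeR's test between the times, where 9.89% of all tested genes did. SLC39A8 was higher at 24 h than at 6 h by 0.16 (log2, SE 0.030, adjusted p = 0.00698) and SLC39A14 by 0.13 (SE 0.027, adjusted p = 0.0135). With T003, 4 of the 7 passed, where 13.5% of all tested genes did. SLC39A8 and SLC39A14 were each higher at 24 h by 0.14 (SE 0.030 and 0.027, adjusted p = 0.00878 and 0.00519). SLC30A1 fell by 0.20 (SE 0.041, adjusted p = 0.00709) and MT1X fell by 0.26 (SE 0.066, adjusted p = 0.0229).

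Each of these 6 calls ended when 1 library was left out. Each held in 13 or 14 of 15 alternatives, the lowest adjusted p of a result being 3.17e-05 to 0.000748. For SLC39A8 with DFO it ended without replicate 1 at 6 h (adjusted p = 0.0539, edgeR) or replicate 2 at 24 h (0.0664), and for SLC39A14 without the same libraries (0.0558 and 0.0877). With T003 it ended for SLC39A8 without replicate 1 at 6 h (0.107) or replicate 1 at 24 h (0.0939) and for SLC39A14 without replicate 1 at 6 h (0.0673). For SLC30A1 it ended without replicate 2 at 6 h (0.0837) or at 24 h (0.0707), and for MT1X without replicate 1 at 6 h (0.183) or replicate 2 at 24 h (0.148). MT2A, at a log2 change of -0.20 between the times (adjusted p = 0.124), did not pass. It passed with DESeq2 (0.0340), in a model of the compared groups alone (0.0226) and on leaving out replicate 1 (0.0220) or replicate 2 (0.0219) of DFO at 6 h.

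The 24 h groups had the highest means of all groups for the 3 importers, and T003 at 24 h had the lowest for the other 4 genes. For SLC39A14 the means ran 202 CPM with T003 at 24 h, 196 with DFO at 24 h, 183 with T003 at 6 h, 180.1 with DFO at 6 h and 179 in untreated cells, and of neighbouring groups the last pair alone overlapped. For SLC39A8 both 24 h groups overlapped each other and stood apart from the other 3, which overlapped. For SLC39A10 the 24 h groups overlapped each other, and the 6 h and untreated groups overlapped below them, the higher untreated library just passing the lower DFO library at 24 h. For SLC30A1 and MT1X, T003 at 24 h stood apart as the lowest and the other 4 groups overlapped in sequence. For MT2A and MT1E the untreated mean was the highest and that of T003 at 24 h the lowest. In MT2A the untreated group overlapped DFO at 6 h, which also reached down into the T003 range at 24 h, and in MT1E the treated groups overlapped in sequence.

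The agents were compared directly at each time. At 24 h the importers had nearly the same level with both, whereas the exporter and the metallothioneins had higher means with DFO than with T003, and none of the 7 differences passed edgeR's test, where 1.34% of all tested genes did. The difference of DFO minus T003 was 0.01 for SLC39A8 (log2, 95% interval -0.06 to 0.07), -0.04 for SLC39A14 (-0.10 to 0.02) and -0.04 for SLC39A10 (-0.17 to 0.09). It was 0.18 for SLC30A1 (0.09 to 0.27, adjusted p = 0.0627), 0.30 for MT1X (0.15 to 0.44, adjusted p = 0.0576), 0.18 for MT2A (0.01 to 0.35, adjusted p = 0.321) and 0.10 for MT1E (-0.12 to 0.32, adjusted p = 0.742). The libraries of the 2 agents did not overlap for SLC30A1, MT1X, MT2A or SLC39A14. DESeq2 called MT1X (adjusted p = 0.000467) and SLC30A1 (0.00588), and edgeR with no filter called MT1X (0.0272). Over 15 alternatives the adjusted p ran from 0.000467 to 0.282 for MT1X and from 0.00588 to 0.314 for SLC30A1.

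At 6 h the differences between the agents were -0.02 to 0.05 on the log2 scale, and the adjusted p-values were 0.944 to 0.997. No gene in the whole table passed at 6 h (0% called by edgeR), against 1334 at an unadjusted p under 0.05 and 14 called by DESeq2. The intervals at 6 h were of about the same width as at 24 h, reaching from -0.16 to 0.13 for MT1X and from -0.07 to 0.11 for SLC30A1.

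**Figure D4:**
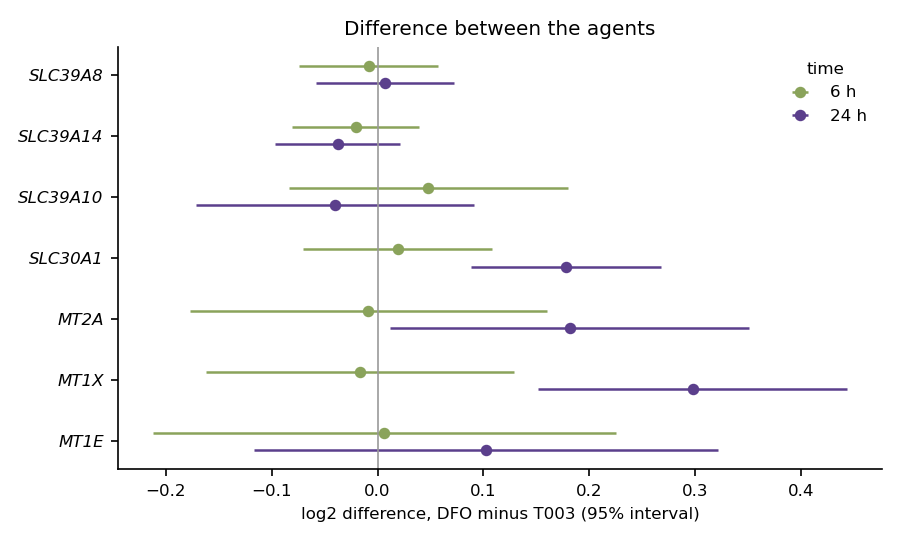
Difference between the agents at matched times for each tested gene (x axis: log2, DFO minus T003, with the 95% interval of edgeR's fit). Green is 6 h and purple is 24 h; the 24 h intervals of SLC30A1, MT2A and MT1X lie above 0, and those of the importers span it.

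These genes and their relatives were counted together in family lists, which were also chosen with earlier results of these data known. Of the 14 ZIP genes 12 were tested. With T003 at 24 h, 4 rose, 1 fell and 7 did not pass, where 7.1% of all tested genes rose and 5.44% fell. The median log2 change was 0.14 against -0.0069 over all genes. With DFO 2 rose and 0 fell, where 3.43% of all tested genes rose and 3.27% fell, with a median of 0.016 against -0.0023. Beside SLC39A8 and SLC39A14, the ZIP genes that rose with T003 were SLC39A1 and SLC39A6, both zinc importers. SLC39A6 had 145 and 148 CPM after 24 h of T003, against 135 and 131 CPM in untreated cells (log2 0.14, SE 0.028, adjusted p = 0.00684, edgeR), and with DFO its log2 change was 0.10 (adjusted p = 0.0573). Its T003 call ended without replicate 2 of T003 at 24 h (0.0586) or untreated replicate 2 (0.0720), within a range of 9.99e-05 to 0.0720.

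SLC39A1 had 112 and 109.8 CPM after 24 h of T003, against 96.9 and 104 CPM in untreated cells (log2 0.15, SE 0.038, adjusted p = 0.0275, edgeR), and with DFO its log2 change was 0.04 (adjusted p = 0.647). The T003 call ended without either library of T003 at 24 h (0.176 and 0.0776) or without untreated replicate 1 (0.224), within a range of 0.00230 to 0.224. SLC39A1 shares 698 bases of its locus with CREB3L4, which had 301 to 540 counts. SLC39A2, another ZIP zinc importer, was the one that fell, with 27 and 25 counts after 24 h of T003, against 59 and 58 counts in untreated cells (log2 -1.03, SE 0.267, adjusted p = 0.0285). That call ended without any 1 of these 4 libraries (0.0766 to 0.150) and in a model of the compared groups alone (0.0865), within a range of 0.0286 to 0.150. Leaving out libraries and the other settings took the ZIP genes that rose with T003 to between 2 and 5 and those that rose with DFO to between 0 and 3.

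Among the 10 ZnT exporters 6 were tested. SLC30A1 was the 1 that fell with T003, where 5.44% of all tested genes fell, and 0 passed with DFO, where 6.7% of all tested genes did in either direction. Of the 12 metallothioneins, the 3 tested were MT2A, MT1X and MT1E, described above, so this list adds no further gene. All 3 fell with T003, where 5.44% of all tested genes fell, with a median log2 change of -0.34. With DFO 0 passed, with a median of -0.14. In the alternatives 1 to 3 of them fell with T003. Of the 5 STEAP genes 2 were tested, both under 1 CPM, and 0 passed with either agent.

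MTF1, the transcription factor that activates metallothionein genes, rose with T003. It had 65.8 and 66.3 CPM with T003 at 24 h and 59.3 and 59.7 CPM with DFO at 24 h, against 57.5 and 54.4 CPM in untreated cells. The T003 libraries were the highest of all 10. The log2 change was 0.24 with T003 (SE 0.038, adjusted p = 0.00214, edgeR) and 0.09 with DFO (adjusted p = 0.238). The T003 call held in 15 of 15 alternatives, with an adjusted p of at most 0.0327. The difference of DFO minus T003 at 24 h was -0.15 (adjusted p = 0.0871) and passed with DESeq2 (0.0126).

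SLC25A37 and SLC41A1 rose with both agents. Of 9 tested carriers of iron, manganese and other metals, 2 rose at 24 h with each agent and 0 fell. Of all tested genes, 3.43% rose with DFO and 7.1% with T003, and 3.27% and 5.44% fell. SLC25A37 (mitoferrin-1), which carries iron into mitochondria, rose by 0.38 (log2, SE 0.036, adjusted p = 0.000152, edgeR) with DFO and 0.44 (SE 0.036, adjusted p = 3.77e-05) with T003, and held in 15 of 15 alternatives with each. SLC41A1, a magnesium transporter, rose by 0.22 (SE 0.038, adjusted p = 0.00646) with DFO and 0.25 (SE 0.038, adjusted p = 0.00150) with T003. Its DFO call ended without untreated replicate 2 (adjusted p = 0.0726). Of 11 copper-handling genes, SCO1, a copper chaperone for cytochrome c oxidase, was the 1 that passed with each agent, a share near that of all tested genes called in either direction (12.5% with T003 and 6.7% with DFO). It rose by 0.18 with T003 (adjusted p = 0.00514) and by 0.14 with DFO (adjusted p = 0.0381), the DFO call holding in 4 of 15 alternatives (0.0199 to 0.207). SCO1 overlaps MYH3, which had 620 to 904 counts.

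**Figure D5:**
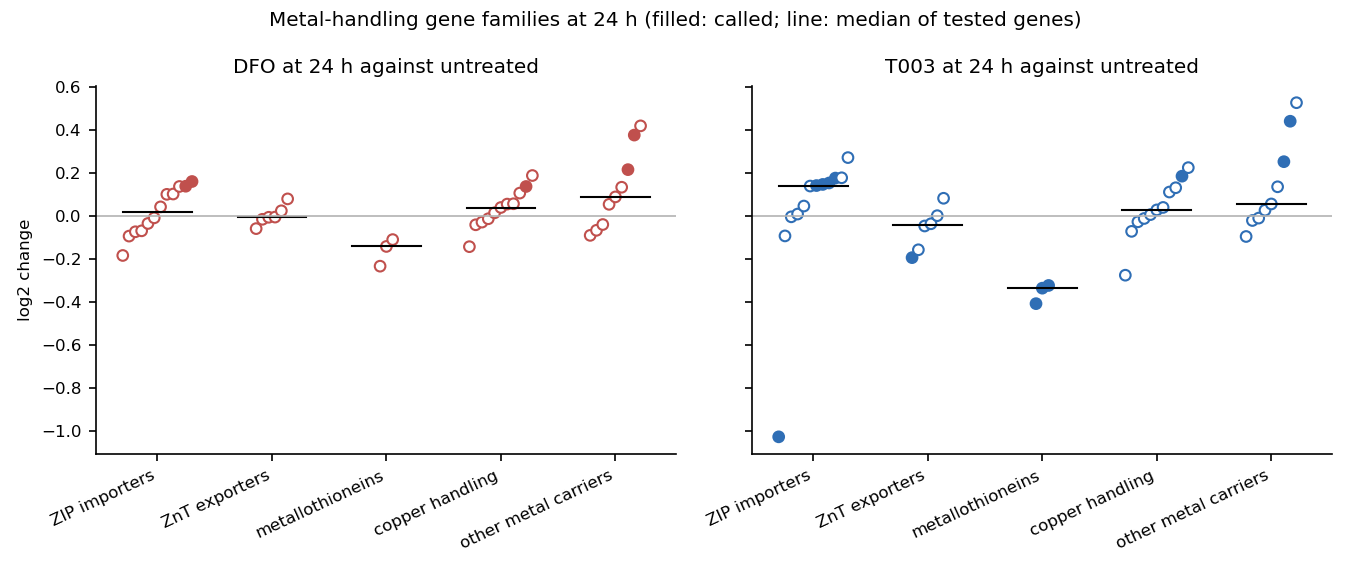
Log2 change of each tested gene of 5 metal-handling families after 24 h of DFO (left) and T003 (right) against untreated cells. Filled points passed edgeR's test at an adjusted p under 0.05 and black lines are medians of the tested genes; the 3 metallothioneins are filled and below 0 with T003, and open with DFO.

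The genes whose group means followed those of each called gene most closely were found among the 10213 tested genes whose mean log2 CPM was 2 or more, by the root mean square (RMS) difference of the 5 group means, each centred on its own average. For SLC39A8 they were DFFA (RMS 0.0027), WDSUB1 (0.0062) and PRDM2 (0.0081), and for SLC39A14 they were RCL1 (0.0046), UTP14A (0.0068) and ELOVL5 (0.0072). For SLC30A1 they were GOLGA5 (0.010), PIGP (0.011) and METAP2 (0.012). For MT2A they were ARHGAP27P1-BPTFP1-KPNA2P3 (0.021), CSRP1-AS1 (0.023) and UCP2 (0.024), for MT1X LBH (0.016), CSRP1-AS1 (0.024) and ICA1 (0.029), and for MT1E MTFR1L (0.020), MTCO1P12 (0.028) and GGCX (0.029). In closeness to MT2A, MT1E was number 18, MT1X number 31 and SLC30A1 number 208. In closeness to MT1X, MT2A was number 9, MT1E number 43 and SLC30A1 number 143. In closeness to MT1E, MT2A was number 7, MT1X number 230 and SLC30A1 number 664. In closeness to SLC39A8, SLC39A14 was number 35 and SLC39A10 number 139. All these distances rest on the same 10 libraries. The SE of the called genes' log2 changes after 24 h of T003 against untreated cells was 0.027 (SLC39A14) to 0.099 (MT1E). For each called gene, the RMS of its 3 named genes lay below its own SE. Genes picked as the nearest of 10213 have small distances by selection. Which genes were nearest, and the order of close genes, is therefore not resolved by these data.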

How the data were processed

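The authors' deposited table holds estimated counts per gene symbol for 10 libraries, not normalized. Trimming used fastp 0.21.0, alignment to hg38 used HISAT2 2.2.1, and StringTie 2.1.6 did the counting on RefSeq genes, per the submitters' processing notes and design text. The deposited values were whole numbers, so no rounding was needed. Coordinates and promoters are RefSeq's (GRCh38.p14), strands and transcript lengths GENCODE's.

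One model of all 10 libraries, with group as its only term, was fitted with edgeR 4.0.16 (glmQLFit, glmQLFTest) in R 4.3.3, after filterByExpr with a minimum count of 10 and TMM scaling (factors 0.991 to 1.01). It left 20125 genes, 5 residual degrees of freedom and a prior of 5.83. P-values were Benjamini-Hochberg adjusted over all genes tested in each of 8 comparisons. SE is the log2 change over the root of F, and the model was tested on simulated data. Library pairs of 1 group differed gene by gene with an SD of 0.122 to 0.182 (log2).

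The named genes are the 9 genes described (the members), every gene of the family lists called against untreated cells, TFRC, and the 3 nearest patterns of each called member. Members and lists were chosen with earlier results of these data known. Alternatives were RLE scaling, no filter, DESeq2 1.42.0, a replicate block, compared groups alone, each library left out, and summed metallothioneins.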

Additional observations from a re-analysis of the deposited data

Results flagged for a closer look

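In 6 results the change against untreated cells differed between 24 h and 6 h of the same agent, by edgeR's test of the difference itself, which equals 24 h minus 6 h. With DFO the difference (log2, 24 h minus 6 h) was 0.16 for SLC39A8 and 0.13 for SLC39A14. With T003 it was 0.14 for SLC39A8, 0.14 for SLC39A14, -0.20 for SLC30A1 and -0.26 for MT1X. Time in culture and length of exposure cannot be told apart in these differences. Each call ended when 1 of the libraries compared was left out, with the adjusted p-values given above.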

How the results depend on the processing

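No called change of a member reversed in any alternative. Of 834 recomputed member changes, which cover 56 results, 786 kept their side of the threshold, 34 lost the call and 14 gained it. Most of the 56 results were not called in the main fit and could not lose a call, so the 34 losses all fell on the fewer called ones. Changes near 0 that were not called could change sign. With 2 libraries a group, calls rest on few libraries. Leaving out 1 library took the genes called from 5 to between 1 and 11 (DFO at 6 h), from 6 to between 1 and 13 (T003 at 6 h), from 1349 to between 431 and 1382 (DFO at 24 h) and from 2524 to between 1085 and 2545 (T003 at 24 h). For DFO against T003 it gave 0 to 4 at 6 h, against 0, and 14 to 229 at 24 h, against 270. For 24 h against 6 h it gave 950 to 1824 with DFO, against 1991, and 1336 to 2739 with T003, against 2714. Members called ran from 0 to 3 (DFO at 24 h, against 2), 2 to 6 (T003 at 24 h, against 6), 0 to 2 (DFO, 24 h against 6 h, against 2) and 1 to 5 (T003, 24 h against 6 h, against 4), and stayed at 0 in the other 4 comparisons. The lowest counts of genes came without untreated replicate 2 for both agents at 24 h, and without replicate 2 of T003 at 24 h for the agents at 24 h. Where a group was left with 1 library, it was assumed to vary like the others.

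With no filter the genes called were 16 (DFO at 6 h) and 2 (agents at 6 h), and 1 member was called between the agents at 24 h. DESeq2 called 522 (DFO at 6 h), 81 (T003 at 6 h), 14 (agents at 6 h) and 888 (agents at 24 h), and 2 members between the agents at 24 h. The compared groups alone gave 851 (DFO at 24 h, 1 member), 2 (agents at 6 h), 55 (agents at 24 h) and 1293 (DFO, 24 h against 6 h). With a replicate block the counts were 2 (DFO at 6 h), 1 (T003 at 6 h), 1 (agents at 6 h) and 117 (agents at 24 h), and the block changed 1 member call, that of MT1E with T003 at 24 h (adjusted p = 0.0596). Differences of replicate 1 minus 2 correlated between groups at -0.344 to 0.325, with 5 of 10 below 0. These values cannot decide whether same-numbered libraries were handled together, and the labels do not say. The cause of these shifts was not tested. RLE scaling moved no count of genes by over 1.5 times. The metallothioneins summed had log2 changes of -0.37 (T003) and -0.14 (DFO) at 24 h and 0.23 between the agents. STEAP3 and MT1F did not pass the filter on low counts, and with no filter STEAP3 was not called in any comparison.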
